A study of Mus musculus with 24 samples.

Results

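Endothelial cells isolated from the brains of Sox17 knockout mice were compared between the adult and postnatal day 9 (P9). The comparison used 6 of the 24 mRNA libraries of the series, every adult and every P9 library of the knockout, chosen by their labels. The adult KO group held 3 libraries from mice that were 6 weeks old when treated, with 4 intraperitoneal injections of 1.5 mg tamoxifen given every other day, and that were harvested 1 week later. The P9 KO group held 3 libraries from pups that received 100 µg tamoxifen under the skin on postnatal day 1. All 6 were labelled as homozygous for a floxed Sox17 allele and positive for Cdh5(PAC)-CreERT2, in which the Cdh5 promoter drives a tamoxifen-dependent recombinase in endothelium. The adult wt and P9 wt groups, 3 libraries each, carried the same floxed alleles without the recombinase and received the same tamoxifen, and were used to set the change in KO beside the change without deletion. Both ages were dissociated with the same kit, depleted of CD45+ leukocytes and selected on CD31 beads, and the replicates were labelled as independent biological ones. Age and tamoxifen schedule changed together, so their effects cannot be told apart in these groups. KO and wt differed in the presence of the recombinase as well as in the deletion of Sox17, and these cannot be told apart either.

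Brain endothelium still divides, sprouts and lays down basement membrane in the first weeks of life, and in the adult it forms a quiescent barrier. That barrier rests on tight junctions, low transcytosis and carriers for glucose, amino acids and hormones, and canonical Wnt signalling maintains much of this programme. Sox17 is a SoxF transcription factor of arterial and brain endothelium that acts beside its relatives Sox7 and Sox18.

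The 6 KO libraries held 12534910 to 19140480 counts and detected 20147 to 21422 genes. A count of 0 in 1 library allowed up to 0.157 to 0.239 CPM over its total count, which covers counting error only. CPM, the unit of all levels below, are counts scaled by TMM (trimmed-mean) library sizes. Endothelial markers were abundant at both ages. Cdh5, the junctional cadherin of endothelium, stood at 682, 722 and 684 CPM in the adult KO libraries and at 1196, 1110 and 1159 CPM in the P9 KO libraries. One library stood apart. P9 KO library 3 had 0.23 CPM of Xist and 99.9 CPM of the Y-linked gene Ddx3y, whereas the other 5 KO libraries had 633 to 789 CPM of Xist and no Ddx3y count. It also differed most from its replicates, by a chi-square statistic over genes, divided by its degrees of freedom, of 29.7 and 58.1 against P9 KO libraries 1 and 2 and of 12.7 between those 2. List counts that moved by 2 or more calls without this library, and printed list medians that changed sign, are given without it beside the result.

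Summed markers of several other brain cell types differed between the ages. Counts of markers called are to be set beside the 30.4% of all tested genes that were higher in the adult KO and the 29.2% that were lower. All 10 oligodendrocyte markers were higher in adult KO libraries, and their summed level was 18927 to 28322 CPM in the adult KO and 1232 to 1881 CPM in the P9 KO. All 12 markers of microglia and macrophages were also higher (10 without P9 KO library 3), with sums of 238 to 433 CPM in the adult KO and 46.2 to 52.7 CPM in the P9 KO. In the choroid plexus and ependyma list, 6 of 8 were higher (4 without P9 KO library 3), and the list summed to 4673 to 8054 CPM in the adult KO and 1227 to 1978 CPM in the P9 KO. Of 10 astrocyte markers 7 were higher and 1 lower. The astrocyte list summed to 2398 to 2692 CPM in the adult KO and 977 to 1478 CPM in the P9 KO, and the neuron list to 415 to 652 and 196 to 434 CPM. Pericyte markers ran the other way, at 550.2 to 563 CPM in the adult KO and 774 to 1890 CPM in the P9 KO, where library 1 held 774 CPM and libraries 2 and 3 1890 and 1881 CPM. Of the smaller lists, 4 of 7 smooth muscle markers were higher and none lower, and 6 of 8 oligodendrocyte precursor markers higher and 2 lower. Of neural progenitor markers 2 of 7 were higher and 3 lower (3 and 2 under the identity scaling described below). Of leukocyte markers 2 of 6 were higher and none lower. In the fibroblast list 3 of 9 were lower and none higher. Like the leukocyte count, the lower count is a share near that of all genes. The fibroblast sum was 79.4 to 98.2 CPM in the adult KO and 209 to 294 CPM in the P9 KO. In the red cell list 5 of 8 were lower (1 higher and 3 lower under identity scaling, with a median of 0.04 in place of -0.61). In the list of lymphatic and peripheral endothelium 3 of 4 were lower and 1 higher. The sum of the 20 endothelial identity genes was 12999 to 14743 CPM in the adult KO and 20855 to 22387 CPM in the P9 KO. Fewer endothelial cells in the fraction and less of these RNAs per endothelial cell cannot be told apart in bulk RNA. When libraries were scaled to those identity genes, the median log2 change of all genes was 0.68 in place of 0.03. List medians or counts, and called genes, whose direction flips under this scaling are given beside the result.

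**Figure D1:**
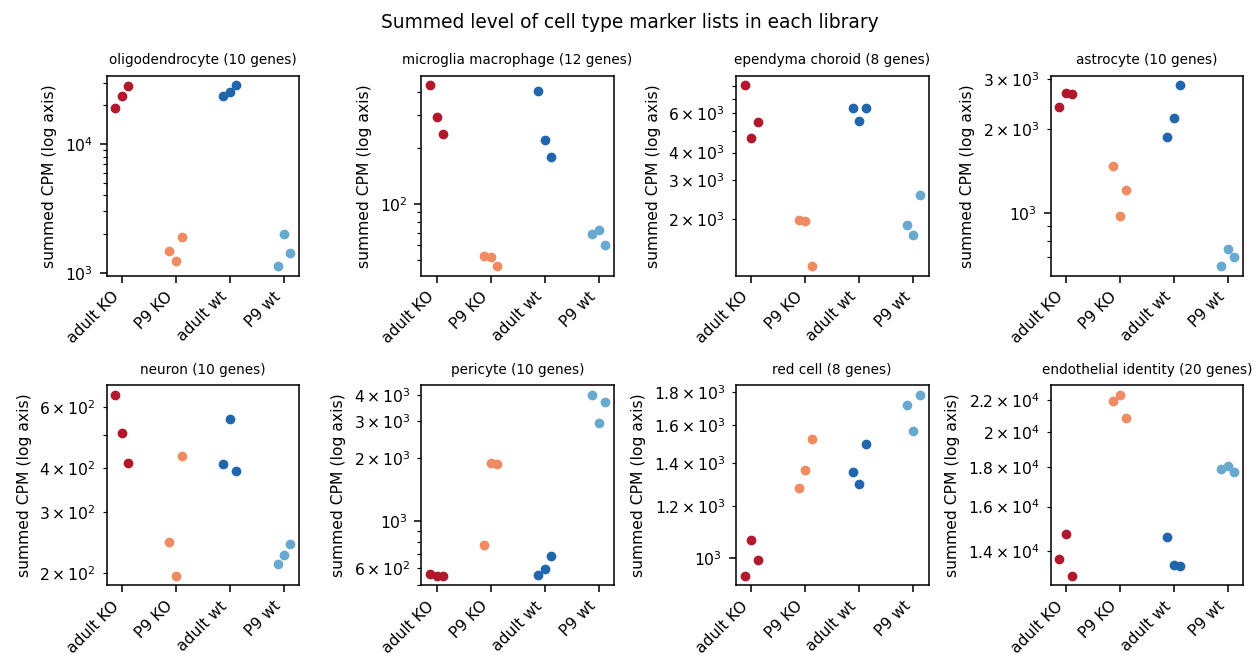
Summed CPM (log axis) of 7 marker lists of other cell types and of the endothelial identity list in each library of 4 groups, 1 point per library. Oligodendrocyte, microglial and choroid sums are higher in all adult KO libraries than in all P9 KO libraries, and the identity sum is lower, at 12999 to 14743 CPM in the adult KO and 20855 to 22387 CPM in the P9 KO.

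The deleted gene was examined first. Sox17 (chr1:4490931-4497354, build mm10) had 57.2, 22.5 and 78.1 CPM in the adult KO libraries and 18.9, 23.9 and 27.2 CPM in the P9 KO libraries, against 317, 298 and 274 CPM in adult wt and 353, 335 and 311 CPM in P9 wt. Every KO library was below every wt library, and adult KO library 2 lay within the P9 KO range while adult KO libraries 1 and 3 lay above it. The adult KO mean was 17.8% of adult wt and the P9 KO mean 7.01% of P9 wt. The log2 change from P9 to adult in KO was 1.16 ± 0.26 (SE, adjusted p = 0.000499) with edgeR's quasi-likelihood test, and it differed from the change in wt by 1.33 (adjusted p = 0.0131) on the log2 scale. The difference no longer passed without adult KO library 3 (0.94), with robust limma-trend (1.18, adjusted p = 0.065) or with the replicate number as a block (1.27, adjusted p = 0.06). The floxed exons are not given in the sources used here, so reads from parts of the gene outside them could not be separated. Rp1, a gene on the same strand beside Sox17 on chromosome 1, was detected in KO far above wt, at 38.5, 43.9 and 39.4 CPM in adult KO and 60.8, 58.2 and 57.1 CPM in P9 KO against 0.274 to 0.971 CPM in adult wt and 1.78 to 1.83 CPM in P9 wt. Esr1, the oestrogen receptor whose human ligand-binding domain is part of CreERT2, had 11.4, 16.3 and 10.3 CPM in adult KO and 26.3, 29.7 and 15.8 CPM in P9 KO, against 0.821 to 1.11 CPM in adult wt and 0.654 to 1.13 CPM in P9 wt. Rp1 was lower in the adult KO by a log2 change of -0.53 (adjusted p = 0.0167), a call lost without adult KO library 1 (-0.49) and with robust limma-trend (adjusted p = 0.11), and under identity scaling its change was 0.12. Whether reads of the transgene were counted as Esr1 was not tested.

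Of the 2 relatives, Sox7 fell to 98.8, 98.7 and 76.2 CPM in adult KO, against 160.0, 180.3 and 154 CPM in P9 KO, a log2 change of -0.85 ± 0.11 (SE, adjusted p = 8.51e-07), and it fell in wt as well (-1.25, adjusted p = 2.15e-09). Under identity scaling the change of Sox7 in KO was -0.20 and did not pass. Sox18 had 446, 557 and 324 CPM in adult KO and 541, 568 and 419.9 CPM in P9 KO, and its log2 change of -0.20 ± 0.22 (SE, adjusted p = 0.441) did not pass the test and was 0.44 under identity scaling.

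Across the transcriptome, 10224 of 17159 genes tested differed between adult and P9 KO libraries, or 59.6%, at an adjusted p under 0.05. Of these, 5221 (30.4%) were higher and 5003 (29.2%) lower in the adult KO, and 3199 and 2100 of them changed by at least 1 on the log2 scale. Scaled to endothelial identity genes, the split was 10020 higher and 1740 lower. In wt, 10484 genes (61.1%) differed between the ages, 5293 higher (30.8%) and 5191 lower (30.3%). These counts come from 1 fit of all 24 libraries. Fitted on the compared libraries alone, 8789 genes were called in KO and 11709 in wt. In the shared fit, the same direction was called in both genotypes for 7849 genes, and opposite directions for 180 genes. The 7849 are 76.8% of the genes called in KO and 74.9% of those called in wt. Per-gene log2 changes in KO and wt, which share no library, correlated with a Pearson r of 0.82 across the 17159 genes, as a description across genes that are not independent. The change in KO differed from the change in wt for 2268 genes (13.2%), 1153 (6.72%) in the positive direction and 1115 (6.5%) in the negative. Of these 2268 genes, 983 moved the same way in both genotypes by different amounts, 324 fell and 208 rose in KO without a call in wt, and 355 fell and 212 rose in wt without a call in KO. A further 106 fell in KO and rose in wt, and 74 rose in KO and fell in wt.

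**Figure D2:**
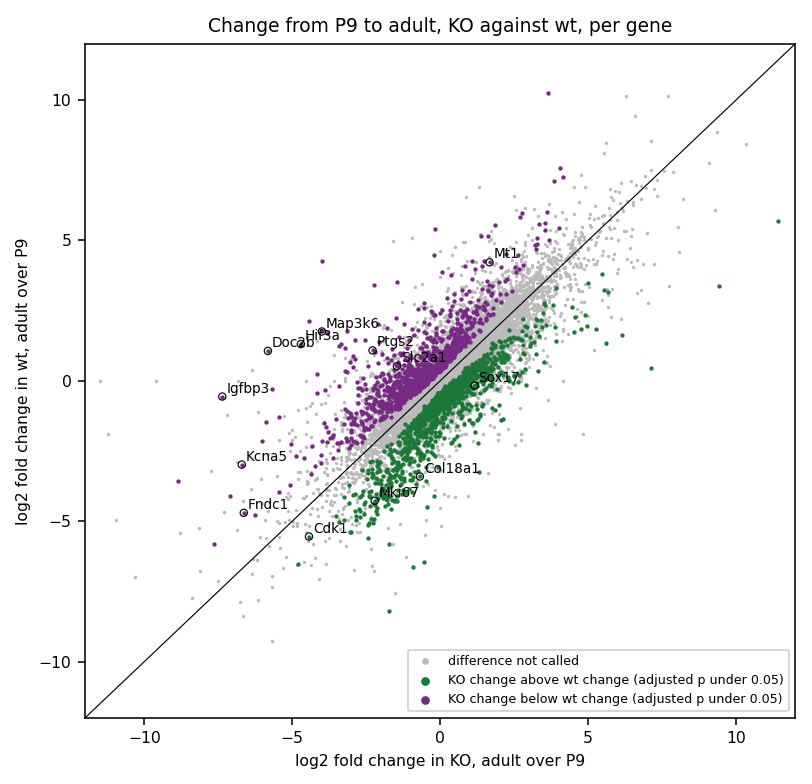
Log2 fold change from P9 to adult in KO (x axis) and in wt (y axis) for 17159 genes, 1 point per gene, with the line of equal change. Coloured genes are the 1153 whose KO change lay above the wt change and the 1115 whose KO change lay below it at an adjusted p under 0.05, and 13 genes described in the text are circled and named.

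All adult KO libraries lay above all P9 KO libraries for 31.7% of the genes tested and below them for 29.2%, or 61.0% in either direction. The largest falls without overlap included genes of matrix, channels and lipid handling. Igfbp3, which binds insulin-like growth factors outside cells, had 14.2, 11.1 and 15.1 CPM in the adult KO and 2315, 2715 and 1624 CPM in the P9 KO. The log2 change in KO was -7.36 ± 0.32 (SE, adjusted p = 1.22e-14), whereas wt libraries had 35.3, 21.9 and 34.9 CPM in the adult and 46.9, 40.9 and 47.8 CPM at P9, and the difference was -6.80 (adjusted p = 7.57e-11). Kcna5, a voltage-gated potassium channel, fell to 3.11, 2.08 and 1.8 CPM in the adult KO, against 268, 249.8 and 227 CPM in the P9 KO (-6.70 on the log2 scale, adjusted p = 5.69e-14). Fndc1, a protein with fibronectin domains, was at 3.92, 5.09 and 6.19 CPM in the adult KO and 473, 570.1 and 455 CPM in the P9 KO. Gpihbp1, which carries lipoprotein lipase across capillary endothelium and is scarce in brain vessels, was at 0.461, 0.134 and 0.392 CPM in the adult KO and 52.7, 40 and 47.5 CPM in the P9 KO, with 5.99 to 7.07 CPM in P9 wt. For all 3 genes the fall in KO exceeded the fall in wt, with differences of -3.72 (adjusted p = 7.88e-06), -1.94 (adjusted p = 0.00012) and -3.01 (adjusted p = 0.00175) on the log2 scale. Without adult wt library 1 the differences were -3.03 for Kcna5 and -2.37 for Gpihbp1. Mmrn1, a multimerin, and Nox4, an NADPH oxidase, fell by 7.63 and 6.35 on the log2 scale (adjusted p = 6.47e-16 and 2.86e-16), and the P9 KO libraries held 64.1 to 97.4 and 30.6 to 33.1 CPM of them.

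Some falls ended at or near 0 counts. Vwa2, a protein with von Willebrand factor A domains, had no count in any adult KO library and 711 counts over the P9 KO libraries, at least 233-fold lower in the adult KO when a floor of 3 counts for the 3 libraries together was used. Grm6, a glutamate receptor gene, was also at 0 in the adult KO, at least 52.2-fold below its 159 counts in the P9 KO. Igf2bp3, an RNA-binding protein of embryonic growth, had 1 count in the adult KO and 367 in the P9 KO, a ratio of 361 with a 95% counting interval of 64.4 to 14300. Madcam1, an addressin, had 3 and 356 counts, a ratio of 117 (39.6 to 569). Tacr3, the neurokinin receptor gene, had 2 counts in the adult KO and 186 in the P9 KO, a ratio of 91.5 (25 to 761). In wt, Vwa2 had no count in the adult and 11 at P9, and Grm6 had 2 and 110.

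The largest rises were of mixed function. Oas2 and the GTPase genes Tgtp1 and Tgtp2 are interferon-inducible, and Oas2 stood at 22.1, 23.7 and 21.2 CPM in the adult KO and 0.42, 0.182 and 0.173 CPM in the P9 KO, a log2 change of 6.48 ± 0.39 (SE, adjusted p = 2.16e-12). Tgtp1 and Tgtp2 are close copies, so reads between them are uncertain. They had 13.3 to 15.3 and 13.3 to 17.2 CPM in the adult KO and at most 0.304 and 0.336 CPM in the P9 KO. Evi2a and Pigz rose to 41.8, 47.2 and 64.1 CPM and 47.5, 39.1 and 54.1 CPM in the adult KO, against at most 0.748 and 0.345 CPM in the P9 KO, beside the oligodendrocyte sums given above, whose part in these rises was not tested. Cyp2e1, a cytochrome P450, had 195 counts in the adult KO and none in the P9 KO, at least 66.0-fold higher against the floor. Pkd2l1, a polycystin channel, rose to 31.5, 40.2 and 33.9 CPM in the adult KO, against 0.0841, 0.546 and 0.575 CPM in the P9 KO. Cyp2e1, Gabrr2, Btbd16 and Scd3, rises with 3 or fewer counts in the P9 KO, also rose in wt.

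Gene lists were used to describe how genes of shared function moved in these bulk fractions. Each count of list genes called is to be set beside the share of all genes tested. In KO that share was 30.4% higher and 29.2% lower, and in wt 30.8% and 30.3%. Among 28 lists of endothelial and stress genes, the medians in KO and wt lay furthest apart for glucocorticoid-induced genes and cell cycle genes.

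**Figure D3:**
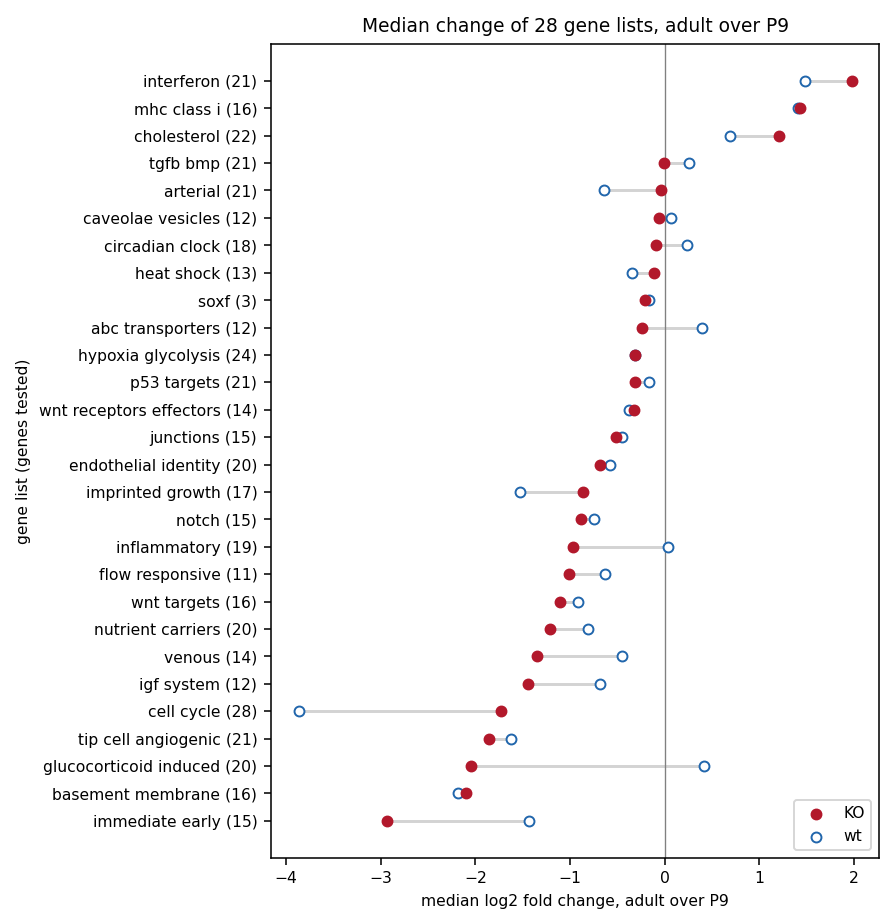
Median log2 fold change from P9 to adult of 28 lists of endothelial and stress genes in KO (filled) and wt (open), with the number of genes tested in each. The glucocorticoid-induced list has a median of -2.05 in KO and 0.41 in wt, the cell cycle list -1.73 in KO and -3.87 in wt, and the interferon list 1.97 in KO and 1.48 in wt.

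Cell cycle genes fell in KO, where their summed P9 level lay below that of wt. The list summed to 239.6 to 278 CPM in the adult KO and 575 to 683 CPM in the P9 KO, against 236 to 276 CPM in adult wt and 1940 to 2052 CPM in P9 wt. Of 28 genes of DNA replication and mitosis, 25 were lower in the adult KO and none higher, with a median log2 change of -1.73 against 0.03 over all genes tested. Mki67, the proliferation antigen, had 8.94, 12.8 and 14.4 CPM in the adult KO and 61.5, 41.5 and 63.6 CPM in the P9 KO, against 11.6, 8.14 and 10.3 CPM in adult wt and 189.8, 194 and 195 CPM in P9 wt. Its adult KO and adult wt libraries overlapped, while all P9 KO libraries lay below all P9 wt libraries. Cdk1, the kinase that drives entry into mitosis, fell most in log2 terms among the 28, to 2.02, 2.41 and 2.12 CPM in the adult KO, against 51.5, 52.7 and 37.6 CPM in the P9 KO, a log2 change of -4.43 ± 0.15 (SE, adjusted p = 2.86e-16). Top2a, which untangles replicated DNA, changed by -1.83 ± 0.16 (SE, adjusted p = 7.40e-10) and Ube2c, which feeds the anaphase-promoting complex, by -3.06 ± 0.25 (SE, adjusted p = 3.87e-10) on the log2 scale. In wt all 28 fell, with a median of -3.87, and for all 28 the change in KO was less negative than in wt by the interaction test, by a median of 1.98. A positive difference was called for 6.72% of all genes tested. Mcm4, Pcna and Tyms, the 3 without a call in KO, act in DNA replication and nucleotide supply, and under identity scaling they were the 3 genes of the list that were higher in the adult KO. Adult KO and P9 KO levels of Tyms were 5.13 to 5.96 and 5.89 to 7.19 CPM, beside 3.95 to 5.48 CPM in adult wt and 27.3 to 29.5 CPM in P9 wt. Pericyte sums, which also fell, were 550.2 to 563 CPM in adult KO and 774 to 1890 CPM in P9 KO against 557 to 681 CPM in adult wt and 2947 to 4018 CPM in P9 wt, and their part in these falls was not tested.

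Because the cell cycle genes moved together, the promoters of Cdk1 and Ube2c are shown with the CCAAT box, bound by NF-Y, and the element TTTGAA, one form of the cell cycle homology region, in capitals on either strand. The windows are from RefSeq on build GRCm38.p6, 250 bases before to 50 after the start site, read 5′ to 3′ along the gene (chr10:69352863-69353162, minus strand; chr2:164769679-164769978, plus strand).
Cdk1: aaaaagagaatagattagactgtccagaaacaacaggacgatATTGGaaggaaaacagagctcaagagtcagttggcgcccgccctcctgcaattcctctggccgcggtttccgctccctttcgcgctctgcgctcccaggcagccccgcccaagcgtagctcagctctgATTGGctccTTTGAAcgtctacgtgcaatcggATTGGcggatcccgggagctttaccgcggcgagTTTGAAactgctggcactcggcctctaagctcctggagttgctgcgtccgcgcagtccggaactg
Ube2c: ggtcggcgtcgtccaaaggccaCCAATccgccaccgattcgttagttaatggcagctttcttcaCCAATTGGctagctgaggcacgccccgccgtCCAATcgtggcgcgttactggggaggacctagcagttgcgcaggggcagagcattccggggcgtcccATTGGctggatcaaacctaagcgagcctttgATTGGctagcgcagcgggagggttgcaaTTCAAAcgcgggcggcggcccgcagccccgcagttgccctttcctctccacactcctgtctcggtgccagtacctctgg
In Ube2c, CCAAT boxes on opposite strands overlap at 1 place. CCAAT was present in the windows of 20 of the 22 list genes that had one and in those of 42.3% of 11932 tested genes, and TTTGAA in 12 of 22 and 14.1%. Here and for the promoters below, the window with the most matches is shown where a gene had several. A gene was counted as holding a motif if any of its windows did. These matches describe the letters and not binding.

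Sprouting and matrix genes fell in both genotypes. Of 21 tip cell and angiogenic genes, 16 were lower and 1 higher in the adult KO, with a median of -1.85. Angpt2, the Tie2 ligand that loosens vessel walls during remodelling, had 17.1, 22.2 and 20.6 CPM in the adult KO and 598, 884 and 467 CPM in the P9 KO, against 16.5 to 26.3 CPM in adult wt and 87.6 to 105 CPM in P9 wt. Its adult levels overlapped between genotypes, and its fall in KO, -5.03 ± 0.28 (SE, adjusted p = 6.64e-13), exceeded that in wt, with a difference of -2.77 (adjusted p = 9.02e-06) on the log2 scale. Apln, the tip cell peptide apelin, fell by 4.19 in KO and 3.51 in wt, and its receptor Aplnr by 3.41 in KO and 5.03 in wt, a difference of 1.62 (adjusted p = 1.88e-05) for Aplnr. The difference for Apln, -0.68 (adjusted p = 0.0609), did not pass, and without P9 KO library 3 it was -0.88 and passed (adjusted p = 0.00344). Adm, adrenomedullin, fell to 7.44, 12.9 and 11.05 CPM in the adult KO, against 281, 321 and 151 CPM in the P9 KO, with 78.7 to 91.3 CPM in P9 wt. Kdr, the main VEGF receptor, fell by 1.57 in KO and 1.85 in wt. Vegfa itself was the list member that rose, to 334, 327 and 311 CPM in the adult KO, against 128, 84.4 and 139 CPM in the P9 KO. Oligodendrocyte, astrocyte and choroid sums, given above, also rose, and their part in the rise of Vegfa was not tested.

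Of 16 basement membrane genes, 14 were lower and 1 higher in the adult KO (median -2.10), as 14 were lower in wt (median -2.18). Fn1, fibronectin, was the most abundant gene of all 3 P9 KO libraries, at 2221, 2558 and 2211 CPM in the adult KO and 13058, 12511 and 11715 CPM in the P9 KO, against 1902, 1713 and 1694 CPM in adult wt and 5734, 5974 and 5777 CPM in P9 wt. The P9 KO libraries were the highest of the 4 groups, and the fall of Fn1 was larger in KO, with a difference of -0.70 (adjusted p = 0.0135). Nid1, Lamb1 and Lama4, which build the laminin and nidogen network, fell by 4.02, 4.16 and 3.15 in KO and by 4.06, 4.57 and 3.08 in wt. Col18a1, the endostatin collagen, differed in size. It had 62.4, 50.6 and 54.8 CPM in the adult KO and 91.2, 96.8 and 81.7 CPM in the P9 KO, but 53.5, 46.6 and 51.03 CPM in adult wt and 532, 533 and 538 CPM in P9 wt, and its change differed by 2.72 (adjusted p = 6.24e-09). Col15a1, the member that rose in KO, had 12.4, 8.97 and 9.48 CPM in the adult KO and 2.19, 3.58 and 5.23 CPM in the P9 KO, and fell in wt (-0.84, adjusted p = 0.00661).

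**Figure D4:**
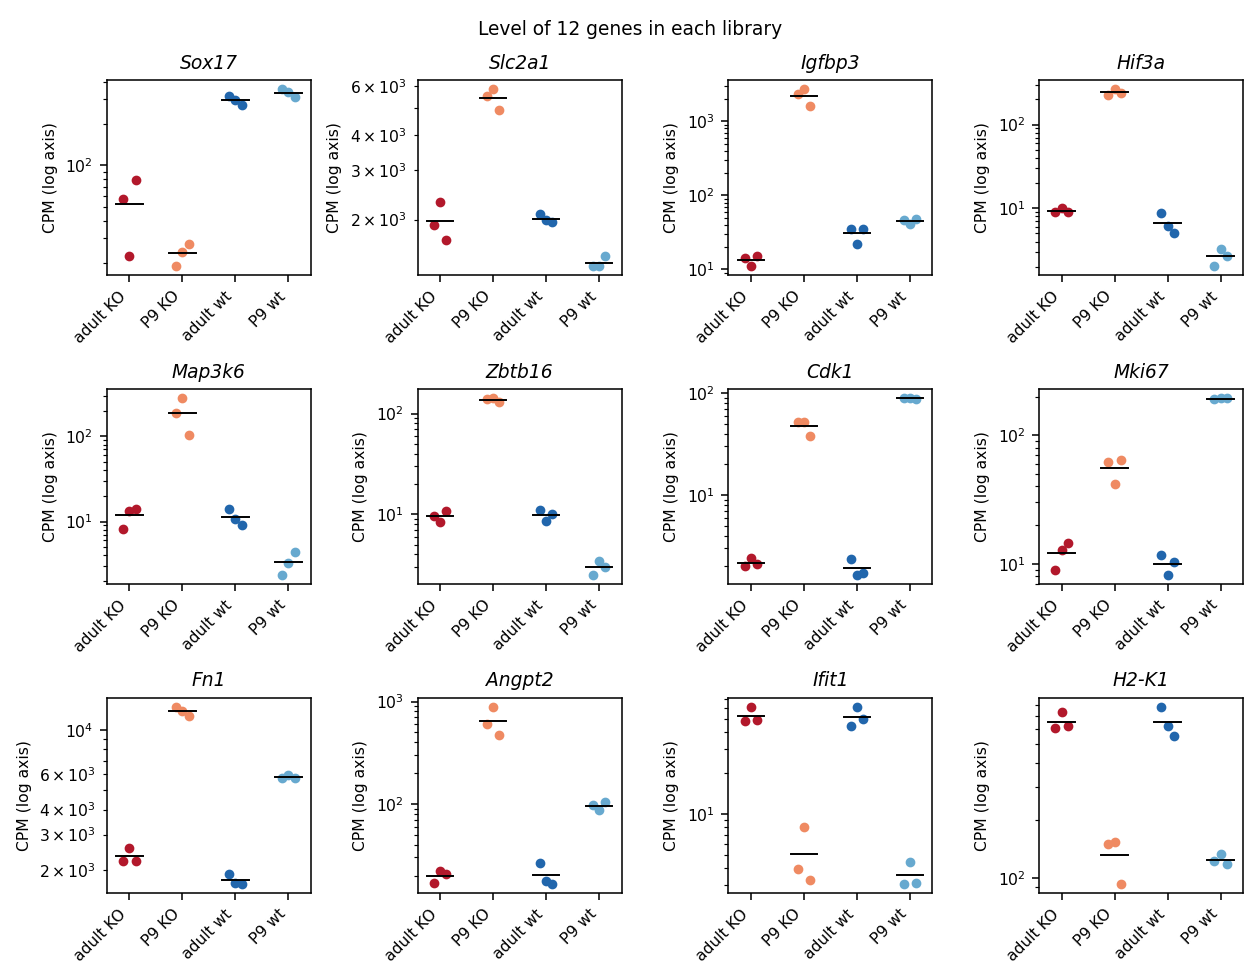
CPM (log axis) of 12 genes in each library of adult KO, P9 KO, adult wt and P9 wt, with group means as bars. P9 KO stands alone as the highest group for Slc2a1, Igfbp3, Hif3a, Map3k6, Zbtb16, Fn1 and Angpt2.

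Arterial genes moved in both directions. Of 21, 9 rose and 10 fell in the adult KO, and their median of -0.04 became 0.61 when scaled to endothelial identity genes and 0.15 without P9 KO library 3. Unc5b, a netrin receptor of arteries, rose to 508, 486 and 605 CPM in the adult KO, against 112, 88.6 and 186 CPM in the P9 KO, with 647, 602 and 623 CPM in adult wt and 401, 369 and 419.6 CPM in P9 wt. Its rise was larger in KO, with a difference of 1.39 (adjusted p = 0.000312). Gkn3, an arterial gene of mouse brain, had 19.03, 9.44 and 15.98 CPM in the adult KO and 0, 0.182 and 0.575 CPM in the P9 KO, and adult wt had 47.8, 47.6 and 37.7 CPM. Its log2 change in KO was 5.69 ± 0.45 (SE, adjusted p = 2.41e-10), and 7.03 without P9 KO library 3. Bmx and Sema3g, further arterial markers, rose by 2.40 and 1.54 in KO and by 1.37 and 0.67 in wt. Gja4, a gap junction protein of arteries, fell to 16.4, 18.4 and 12.6 CPM in the adult KO, against 24.6, 28.8 and 54.4 CPM in the P9 KO, beside 143 to 146 CPM in P9 wt. In total 8 arterial genes had a more positive change in KO than in wt and 5 a more negative one, beside 6.72% and 6.5% of all genes tested. Cxcr4, the chemokine receptor, fell to 6.63, 6.63 and 3.84 CPM in the adult KO, against 196, 173 and 216 CPM in the P9 KO, and its ligand Cxcl12 rose to 1697, 1817 and 1652 CPM in the adult KO, against 229, 171 and 431 CPM in the P9 KO.

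Notch genes fell more often than they rose, with 10 of 15 lower and 2 higher in the adult KO (median -0.88, and -0.23 scaled to identity genes, where 6 were lower and 5 higher). Dll4, the arterial and tip cell ligand, had 73.7, 90.3 and 83.3 CPM in the adult KO and 637, 577 and 527 CPM in the P9 KO, a fall that exceeded wt, with a difference of -1.23 (adjusted p = 3.39e-05). The receptor Notch4 fell by 1.86, and the targets Nrarp and Hes1 by 2.58 and 2.38. Venous genes fell in 10 of 14 and rose in 1, with a median of -1.35. Vwf, the endothelial clotting factor, had 427, 443 and 458 CPM in the adult KO and 2583, 2631 and 2737 CPM in the P9 KO, against 510.3, 414 and 444 CPM in adult wt and 1418, 1324 and 1586 CPM in P9 wt. Vcam1, a leukocyte adhesion molecule, was the venous gene that rose, to 73.9, 99.3 and 152 CPM in the adult KO, against 29, 30.8 and 23.1 CPM in the P9 KO.

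Carriers of the barrier mostly fell. Of 20 nutrient carriers, 15 were lower and 4 higher in the adult KO (median -1.21), and 14 and 5 in wt. Slc2a1, the glucose transporter GLUT1, moved in opposite directions in KO and wt. It had 1910, 2314 and 1692 CPM in the adult KO and 5534, 5845 and 4922 CPM in the P9 KO, against 2090, 1992 and 1964 CPM in adult wt and 1369, 1363 and 1484 CPM in P9 wt. The adult groups overlapped, and the P9 KO libraries lay above all others. The log2 change was -1.46 ± 0.13 (SE, adjusted p = 7.63e-10) in KO and 0.52 ± 0.12 (SE, adjusted p = 0.000849) in wt, a difference of -1.98 (adjusted p = 5.51e-08). Slc16a1, the lactate and ketone carrier, Tfrc, the transferrin receptor, and Slc7a5, the large amino acid carrier, fell by 3.52, 2.55 and 2.57 in KO and by 2.92, 2.57 and 1.75 in wt. Slc6a6, the taurine transporter, rose to 2186, 1964 and 1971 CPM in the adult KO, against 657, 550.0 and 861 CPM in the P9 KO, and its rise was larger than in wt, with a difference of 1.11 (adjusted p = 0.00182). Mfsd2a, the lipid transporter that suppresses transcytosis, fell to 388, 476 and 316 CPM in the adult KO, against 1082, 898 and 1173 CPM in the P9 KO, and fell in wt too. Of 12 ABC efflux genes, 3 rose and 6 fell, beside 30.4% and 29.2% of all genes tested. Their median of -0.24 became 0.42 under identity scaling. Abcc4, an efflux pump of organic anions, fell to 225, 232 and 215 CPM in the adult KO, against 504, 653 and 417 CPM in the P9 KO, and differed from wt by -1.52 (adjusted p = 3.60e-06).

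Junction genes fell in 8 of 15 and rose in 2, beside 29.2% lower and 30.4% higher among all genes tested. Their median of -0.51 became 0.15 under identity scaling. Cldn5, the main claudin of the barrier, had 4073, 3836 and 3420 CPM in the adult KO and 7162, 9681 and 6717 CPM in the P9 KO, against 3906, 4254 and 3818 CPM in adult wt and 5455, 5830 and 5588 CPM in P9 wt. Its log2 change was -1.06 ± 0.13 (SE, adjusted p = 4.13e-07) in KO and -0.49 in wt, and the difference of -0.56 (adjusted p = 0.0487) did not pass when any 1 of 10 of the 12 libraries was left out, with the compared libraries alone (adjusted p = 0.057) or under identity scaling (-0.28, adjusted p = 0.35). Jam3, a junctional adhesion molecule, rose to 82.5, 116 and 116 CPM in the adult KO, against 21.3, 21 and 25.8 CPM in the P9 KO. The oligodendrocyte sums given above also rose, and their part in the rise of Jam3 was not tested. Plvap, the diaphragm protein of leaky vessels, had 25.7, 9.71 and 19.7 CPM in the adult KO and 17.9, 17.8 and 21.9 CPM in the P9 KO, which overlapped, and its change of -0.06 (adjusted p = 0.872) was 0.60 under identity scaling. In the caveolae and vesicle list 3 of 12 rose and 3 fell, shares below the 30.4% and 29.2% of all genes tested. Under identity scaling 9 rose and 1 fell. The coat gene Cav2 rose by 0.91.

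Wnt targets fell in 10 of 16 and rose in 3 (median -1.10), and 12 fell and 1 rose in wt. Apcdd1, a Wnt inhibitor and barrier marker, had 1029, 1282 and 878 CPM in the adult KO and 3905, 3989 and 3546 CPM in the P9 KO, and its changes of -1.84 in KO and -1.95 in wt were similar in size. Axin2, a feedback inhibitor widely used as a Wnt readout, had 147, 150.2 and 138 CPM in the adult KO and 132, 121 and 122 CPM in the P9 KO, a log2 change of 0.22 ± 0.15 (SE, adjusted p = 0.203) that did not pass and that was 0.87 (adjusted p = 6e-05) under identity scaling. Lef1, a transcription factor of the pathway, rose to 119, 133 and 111 CPM in the adult KO, against 75.1, 88.4 and 94.8 CPM in the P9 KO, a log2 change of 0.49 ± 0.13 (SE, adjusted p = 0.00322), with 149.8, 148 and 135 CPM in adult wt and 142, 135 and 101 CPM in P9 wt. Fgfbp1, which frees bound fibroblast growth factors, fell to 3.17, 3.95 and 2.98 CPM in the adult KO, against 93.99, 114 and 85.9 CPM in the P9 KO, and more than in wt, with a difference of -2.18 (adjusted p = 6.33e-05). Nkd1, a feedback inhibitor, had a change of 0.21 in KO (adjusted p = 0.234), or 0.86 under identity scaling (adjusted p = 1.4e-06), and fell in wt (-0.94, adjusted p = 8.65e-06), which differed by 1.15 (adjusted p = 0.000507). Among receptors and effectors, 8 of 14 fell and 1 rose (6 and 3 without P9 KO library 3), with a median of -0.33 and of 0.33 under identity scaling. Fzd4, the frizzled receptor of retinal and brain vessels, fell to 41.1, 54.5 and 54.4 CPM in the adult KO, against 185, 187 and 184 CPM in the P9 KO, and more than in wt, with a difference of -1.01 (adjusted p = 4.36e-05). Reck, part of the receptor complex for Wnt7, rose by 1.54 in KO and 1.82 in wt.

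Glucocorticoid-induced genes had the widest gap between KO and wt of the 28 list medians. Of 20, 15 fell and 3 rose in the adult KO (median -2.05), while in wt 3 fell and 10 rose (median 0.41). The change was more negative in KO for 19 of the 20, beside 6.5% of all genes tested. Hif3a, a hypoxia-inducible factor subunit that glucocorticoids also induce, had 8.997, 10.05 and 8.93 CPM in the adult KO and 228, 266 and 238 CPM in the P9 KO, against 8.81, 6.09 and 5.06 CPM in adult wt and 2.03, 3.22 and 2.71 CPM in P9 wt. P9 KO libraries stood far above all others, and P9 wt libraries were the lowest. Its log2 change was -4.71 ± 0.27 (SE, adjusted p = 7.74e-13) in KO and 1.31 in wt, a difference of -6.02 (adjusted p = 6.16e-10). Zbtb16, a zinc finger repressor, had 9.69, 8.31 and 10.7 CPM in the adult KO and 138, 143 and 129 CPM in the P9 KO, against 8.49 to 10.9 CPM in adult wt and 2.48 to 3.45 CPM in P9 wt. Map3k6, a stress kinase, had 8.19, 13.5 and 14.1 CPM in the adult KO and 185, 280.4 and 103 CPM in the P9 KO, against 9.08 to 14.2 CPM in adult wt and 2.35 to 4.42 CPM in P9 wt. For both genes KO fell and wt rose, with differences of -5.55 (adjusted p = 3.40e-09) and -5.75 (adjusted p = 1.77e-08). Fkbp5, a chaperone of steroid receptors, fell in both genotypes, by 3.73 in KO and 2.04 in wt. Sult1a1, a sulfotransferase, fell to 17.7, 21.4 and 21.4 CPM in the adult KO, against 192, 227 and 141 CPM in the P9 KO, and differed from wt by -4.36 (adjusted p = 6.16e-10). The metallothionein genes Mt1 and Mt2, which bind zinc and copper, rose in both genotypes, by 1.67 and 1.07 in KO and by 4.22 and 4.26 in wt, with P9 KO levels of 24.7 to 38.1 and 17.2 to 35.6 CPM and P9 wt levels of 5.49 to 6.92 and 3.11 to 3.6 CPM. Doc2b, a calcium sensor of exocytosis that belongs to no list, showed the same order, at 3.98, 2.55 and 1.88 CPM in the adult KO and 176, 203 and 106 CPM in the P9 KO, against 2.43 to 3.35 CPM in adult wt and 0.928 to 1.83 CPM in P9 wt, a difference of -6.89 (adjusted p = 7.27e-10).

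The Map3k6 promoter is shown because it was 1 of 3 in the list, with Sgk1 and Mt1, to hold a palindromic hexamer pair of the kind glucocorticoid receptors bind, searched as GNACA and TGTNC with any 3 bases between them, on both strands and given in capitals (RefSeq, GRCm38.p6, chr4:133240568-133240867, plus strand).
Map3k6: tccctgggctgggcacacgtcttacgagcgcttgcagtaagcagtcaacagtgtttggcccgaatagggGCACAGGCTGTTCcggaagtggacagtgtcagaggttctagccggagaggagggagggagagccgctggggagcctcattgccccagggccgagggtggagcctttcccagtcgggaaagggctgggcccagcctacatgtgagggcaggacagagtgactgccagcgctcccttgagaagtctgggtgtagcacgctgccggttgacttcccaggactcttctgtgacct
The motif was in windows of 3 of 17 list genes with a window and of 0.453% of 11932 tested genes. A match describes letters and no binding.

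All 15 immediate early genes fell in the adult KO (median -2.94), and 14 fell in wt (median -1.44). Fos had 104, 69.1 and 67.2 CPM in the adult KO and 1292, 1706 and 1910 CPM in the P9 KO, against 52.1 to 89.9 CPM in adult wt and 584 to 903 CPM in P9 wt. For 9 of the 15 the fall was larger in KO, beside a negative difference in 6.5% of all genes tested. Btg2 led these, an antiproliferative gene at 90.7, 92.7 and 91.8 CPM in the adult KO and 701, 874 and 846 CPM in the P9 KO, with a difference from wt of -2.07 (adjusted p = 9.13e-09). Immediate early genes can respond to tissue dissociation, and their part in other changes was not tested. Of 21 p53 targets, 9 fell and 3 rose, beside 29.2% lower and 30.4% higher among all genes tested. Their median of -0.32 became 0.34 under identity scaling. Cdkn1a, the cell cycle inhibitor p21, fell to 132, 185 and 130.2 CPM in the adult KO, against 651, 786 and 538 CPM in the P9 KO, and differed from wt by -1.72 (adjusted p = 7.69e-05). Circadian genes split into 6 higher and 6 lower of 18, shares near the 30.4% and 29.2% of all genes tested. The split was 12 and 3 under identity scaling and 8 and 7 without P9 KO library 3. Per1 and Per2, which glucocorticoids also induce, fell by 1.96 and 1.91 in KO, where wt libraries had changes of -0.16 and 0.06 with adjusted p of 0.402 and 0.785. Of 24 hypoxia and glycolysis genes, 11 fell and 5 rose, beside the same 29.2% and 30.4%. Their median was -0.31 (0.34 under identity scaling), and 13 fell without P9 KO library 3. Ndrg1, a hypoxia-responsive gene also abundant in oligodendrocytes, rose to 847, 953 and 990.3 CPM in the adult KO, against 72.05, 93.2 and 71.8 CPM in the P9 KO, and less than in wt, with a difference of -2.06 (adjusted p = 0.000174). Heat shock genes gave 3 higher and 6 lower of 13, beside 30.4% and 29.2% of all genes tested. The split became 8 and 2 under identity scaling.

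**Figure D5:**
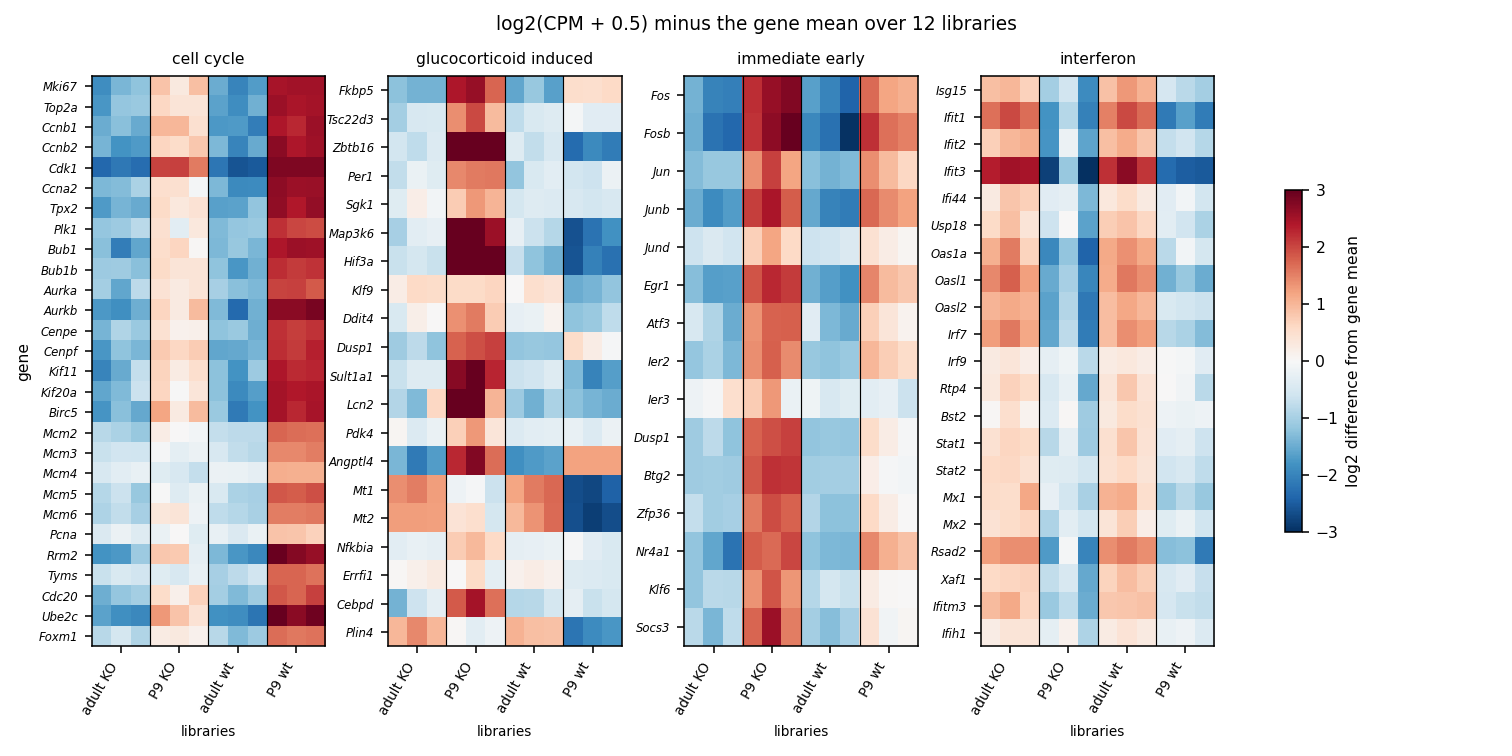
Log2(CPM + 0.5) minus the mean over 12 libraries for the genes of 4 lists, 1 column per library in the order adult KO, P9 KO, adult wt and P9 wt. Cell cycle genes are highest in P9 wt and lower in P9 KO, most glucocorticoid-induced and immediate early genes are highest in P9 KO, and interferon genes are higher in adult than in P9 libraries of both genotypes.

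Interferon-stimulated genes rose as a group. All 21 were higher in the adult KO, a share to set beside the 30.4% of all genes, with a median of 1.97. Without P9 KO library 3, 18 of the 21 were called higher, with a median of 1.67. In wt 20 of 21 were higher (median 1.48). No member had a called difference between the genotypes. On simulated data with changes in few genes, that test recovered 8.96% of 1.5-fold and 50.75% of 2-fold changes. Recovery can differ in the real data, where a larger share of genes was called. Smaller differences could still be missed. Ifit1, which binds foreign RNA, had 48.2, 60.9 and 48.7 CPM in the adult KO and 3.95, 8.07 and 3.28 CPM in the P9 KO, against 43.95 to 60.7 CPM in adult wt and 3.07 to 4.47 CPM in P9 wt. Irf7, the factor that amplifies interferon production, rose to 173, 218 and 163 CPM in the adult KO, against 24.3, 41.7 and 16.6 CPM in the P9 KO, a log2 change of 2.74 ± 0.30 (SE, adjusted p = 4.67e-08). Ifit3, a partner of Ifit1, rose by 4.76 in KO and 5.15 in wt, and by 6.00 in KO without P9 KO library 2. P9 KO library 2 was the highest and library 3 the lowest of the P9 KO for Ifit1, Irf7 and Isg15, a ubiquitin-like modifier at 62.9, 66.4 and 53.9 CPM in the adult KO and 16.2, 21.97 and 8.57 CPM in the P9 KO. Of 16 genes of MHC class I presentation, 15 rose (median 1.42), with H2-K1, a classical class I chain, at 609.5, 738 and 620.3 CPM in the adult KO and 151, 154 and 93.02 CPM in the P9 KO. B2m, its light chain, rose by 1.66, and Nlrc5, the transactivator of class I genes, by 4.56 (5.37 without P9 KO library 2), to 19.6, 23.9 and 26.7 CPM in the adult KO, against 0.841, 1.76 and 0.345 CPM in the P9 KO. The H2 genes are near-identical to each other in part, so counts between them are uncertain. Microglial markers rose beside them, with sums of 238 to 433 CPM in the adult KO and 46.2 to 52.7 CPM in the P9 KO, and their part was not tested.

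Promoters of Ifit1 and Isg15 are shown with the interferon-stimulated response element, searched as GAAA, any 2 bases and GAAA again, on both strands, in capitals (RefSeq, GRCm38.p6, chr19:34640639-34640938, plus strand; chr4:156200769-156201068, minus strand).
Ifit1: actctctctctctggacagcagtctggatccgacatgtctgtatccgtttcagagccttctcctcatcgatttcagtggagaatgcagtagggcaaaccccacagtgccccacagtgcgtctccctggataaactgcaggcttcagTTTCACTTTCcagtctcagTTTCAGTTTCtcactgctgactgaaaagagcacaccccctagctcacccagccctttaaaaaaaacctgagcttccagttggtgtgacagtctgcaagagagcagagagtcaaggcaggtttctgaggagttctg
Isg15: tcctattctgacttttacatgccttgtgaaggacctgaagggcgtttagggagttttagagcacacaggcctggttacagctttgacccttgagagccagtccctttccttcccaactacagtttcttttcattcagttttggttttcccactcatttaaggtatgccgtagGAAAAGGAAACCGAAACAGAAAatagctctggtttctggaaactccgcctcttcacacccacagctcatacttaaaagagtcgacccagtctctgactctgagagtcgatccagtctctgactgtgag
Ifit1 held 2 matches and Isg15 3 overlapping ones, all within 104 bases before the start site. The element was in the windows of 9 of the 16 list genes that had one and of 3.64% of 11932 tested genes. Again, a match is a description of letters.

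Of 22 cholesterol synthesis and uptake genes, 16 rose and 2 fell in the adult KO (median 1.21, and 0.69 in wt), beside the oligodendrocyte sums given above, whose part was not tested. Dhcr7, the last enzyme of one branch of the pathway, had 118, 95.4 and 105 CPM in the adult KO and 24.2, 19.9 and 30.1 CPM in the P9 KO, against 95.5 to 120.2 CPM in adult wt and 50.7 to 58.4 CPM in P9 wt, and its rise was larger in KO, with a difference of 1.09 (adjusted p = 0.00171). In the insulin-like growth factor system 8 of 12 fell and 2 rose. Besides Igfbp3, the receptors Insr and Igf1r fell by 1.91 and 1.39, with differences from wt of -1.03 (adjusted p = 0.000293) and -1.12 (adjusted p = 0.00104), and Igfbp4, another binding protein, fell by 2.89 in KO and 4.64 in wt. Imprinted and growth genes fell in 10 of 17 and rose in 1, as 12 fell in wt. H19, an imprinted noncoding RNA, was at 0.115, 0.268 and 0.235 CPM in the adult KO and 8.996, 3.52 and 5.7 CPM in the P9 KO, and Grb10, an imprinted adaptor that restrains growth signalling, fell by 2.26.

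Inflammatory genes fell in 11 of 19 and rose in 3, and 13 fell without P9 KO library 3 (median -0.97). Ptgs2, the inducible cyclooxygenase, had 19.4, 17.1 and 30.01 CPM in the adult KO and 102, 140.4 and 80.5 CPM in the P9 KO, against 7.8 to 9.91 CPM in adult wt and 3.73 to 4.71 CPM in P9 wt, a difference between the genotypes of -3.37 (adjusted p = 2.39e-07). Lcn2, the siderophore-binding lipocalin, had 5.19, 3.68 and 15.51 CPM in the adult KO and 101, 307 and 20.6 CPM in the P9 KO, with P9 KO library 2 far above library 3. Its log2 change was -4.16 ± 0.63 (SE, adjusted p = 5.85e-06), and -2.92 without P9 KO library 2 and -5.00 without adult KO library 3. Csf3, a cytokine gene, was called lower, but its 60 P9 KO counts all came from library 2, without which the group had none. Flow-responsive genes gave 9 lower and 1 higher of 11, with Klf2 at 172, 329.7 and 210.2 CPM in the adult KO and 562, 747 and 621 CPM in the P9 KO, and Thbd, thrombomodulin, rising to 342, 318 and 292 CPM in the adult KO, against 109.9, 123 and 84.4 CPM in the P9 KO. TGF-beta and BMP genes split into 6 higher and 8 lower of 21, beside 30.4% and 29.2% of all genes tested. Under identity scaling the split was 11 and 5. The pseudoreceptor Bambi was lower by 2.62 and the inhibitor Smad7 higher by 1.05. In the endothelial identity list, 12 of 20 fell and 1 rose. Identity scaling uses the sum of these same genes, so their split of 7 lower and 8 higher under it is no separate result. Robo4 and Clec14a, which restrain vessel growth and bind matrix, were lower by 1.74 and 2.39. Their differences from wt were -1.15 (adjusted p = 2.79e-05) and -1.56 (adjusted p = 1.86e-05).

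The opposite difference, a more positive change in KO than in wt, was largest outside the cell cycle list in a few genes with low counts. Cbln2, a synaptic organiser, had 2.13, 2.08 and 0.862 CPM in the adult KO and 2.77, 1.76 and 2.53 CPM in the P9 KO, against 0.347 to 1.85 CPM in adult wt and 20.2 to 21.7 CPM in P9 wt, a difference of 4.06 (adjusted p = 4.05e-06) that became 5.12 without adult wt library 2. Itga2, a collagen-binding integrin, stood at 1.03 to 1.77 CPM in P9 KO and 9.67 to 11.6 CPM in P9 wt and fell in both genotypes, with a difference of 3.17 (adjusted p = 0.00399). Col14a1, a fibril-associated collagen, rose to 40.7, 35.9 and 45.8 CPM in the adult KO, against 1.6, 1.4 and 1.5 CPM in the P9 KO, and by less in wt, a difference of 2.93 (adjusted p = 6.44e-06). Cdkn3, a phosphatase of cell cycle kinases, fell less in KO, with a difference of 4.08 (adjusted p = 6.84e-05). Among the most negative differences, Etnppl, an astrocyte-enriched enzyme, had 40.7, 50.4 and 42.4 CPM in the adult KO and 3.53, 3.58 and 3.45 CPM in the P9 KO, and in wt 1497 counts in the adult and 1 at P9, a ratio of 1670 with a 95% counting interval of 299 to 65900 that rests on that 1 count. On the positive side, Cml2, an acetyltransferase family member, and Sstr4, a somatostatin receptor, had low P9 KO levels of 0, 0.182 and 0.173 and 0.252, 0.121 and 0.0575 CPM beside 1.07 to 1.96 and 0.719 to 1.64 CPM in P9 wt. Their adult KO and adult wt libraries overlapped or lay close, and the rises in KO were larger, with differences of 3.41 (adjusted p = 0.00136) and 3.0 (adjusted p = 0.00096). Clca3a1, which had 3.23 to 6.66 CPM in the adult KO and 4.71 to 7.1 CPM in the P9 KO, rose in wt, where the lowest adult library had 0.911 CPM and P9 libraries at most 0.196 CPM, a difference between genotypes of -5.58 (adjusted p = 9.79e-05) that became -6.27 without P9 wt library 1.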

How the data were processed

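RNA of brain endothelial cells was sequenced on an Ion Proton, per the labels, in 24 libraries of 8 groups, of which the 3 adult and 3 P9 libraries of KO and of wt were compared here. Build mm10 and the tools STAR 2.5.3a, SAMtools 1.5, Trim Galore 0.4.1 and FastQC are named in the submitters' processing notes, and the annotation release is not given in the sources used here. Each deposited table gives, per the file headers, a forward-strand read count, an FPKM and a TPM value for 45468 genes. The deposited counts were tested. The FPKM values deposited by the authors were not used, and the TPM values deposited by the authors were only averaged for reference. Libraries of the 2 ages held 12534910 to 19140480 counts, and their number and the 3 libraries a group limit precision.

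A gene was kept where some group averaged 10 counts or more (17159 genes). All 24 libraries were fitted with 1 mean per group in edgeR 4.0.16 (R 4.3.3; TMM scaling, quasi-likelihood F test, Benjamini-Hochberg adjustment over the 17159 genes, threshold 0.05), which left 16 residual degrees of freedom. Sharing the fit means that the other groups also set the spread. Contrasts were adult minus P9 in KO, the same in wt, and their difference. The fit was tested on simulated data with changes added to few genes of the adult KO and all other genes set equal between the ages. It recovered 74.63% of 2-fold changes in the KO contrast and 50.75% in the difference between genotypes. A larger share of genes was called in the real data, so recovery there can differ. CPM of genes were taken from edgeR with TMM library sizes. Alternatives were DESeq2 1.42.0, its size factors, robust limma-trend (limma 3.58.1), no low-count filter, a fold threshold, the compared libraries alone, a replicate block, scaling to the endothelial identity list, and each library left out. Folds against 0 counts used a floor of 3 counts over the group, and ratios with 1 to 3 counts have exact 95% counting intervals, both for counting error only.

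The genes named were the 12 largest rises and 12 largest falls in KO among genes whose libraries did not overlap, and whose higher group averaged 50 counts or more, the 8 most positive and 8 most negative differences between genotypes, and up to 4 members per list by adjusted p, with a few always named. Not all of these are described, a few genes are not reported here, and further list members and the genes of the closing observations were chosen after their values were seen. The groups and the gene lists were chosen with earlier results of these data known. Symbols absent from the tables were not used here.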

Additional observations from a re-analysis of the deposited data

Results flagged for a closer look

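The change from P9 to adult differed between KO and wt for 2268 of 17159 genes, by an interaction term in the fit of all 24 libraries. For the single genes described above that passed this test, the difference in log2 change, KO minus wt, is repeated here as the value that set each apart.

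In the glucocorticoid-induced, immediate early, circadian, p53, hypoxia and inflammatory lists, the differences were -6.02 for Hif3a, -5.75 for Map3k6, -5.55 for Zbtb16, -4.40 for Lcn2, -4.36 for Sult1a1, -3.37 for Ptgs2, -3.20 for Mt2, -2.55 for Mt1, -2.07 for Btg2, -2.06 for Ndrg1, -1.97 for Per2, -1.85 for Adm, -1.80 for Per1, -1.72 for Cdkn1a, -1.69 for Fkbp5, -1.17 for Sgk1 and -1.03 for Fos. In the insulin-like growth factor, tip cell, basement membrane, arterial, venous, Notch, flow and endothelial lists, the differences were -6.80 for Igfbp3, -3.01 for Gpihbp1, -2.77 for Angpt2, -1.56 for Clec14a, -1.37 for Cxcr4, -1.23 for Dll4, -1.15 for Robo4, -1.12 for Igf1r, -1.03 for Insr, -0.92 for Vwf, -0.89 for Notch4, -0.81 for Klf2 and -0.70 for Fn1. In the nutrient carrier, efflux, junction and Wnt lists, the differences were -2.18 for Fgfbp1, -1.98 for Slc2a1, -1.52 for Abcc4, -1.01 for Fzd4, -0.82 for Slc7a5 and -0.56 for Cldn5. In the astrocyte marker list, the differences were -6.58 for Etnppl and -1.33 for Slc1a2. Negative differences among genes of no list were -6.89 for Doc2b, -5.58 for Clca3a1, -3.72 for Kcna5, -1.94 for Fndc1 and -1.81 for Mmrn1. In the cell cycle list, the differences were 2.38 for Tyms, 2.37 for Top2a, 2.31 for Ube2c, 2.06 for Mki67, 1.49 for Mcm4, 1.11 for Cdk1 and 0.92 for Pcna. In other lists, positive differences were 2.72 for Col18a1, 2.51 for Gkn3, 2.29 for Col15a1, 1.76 for Acta2, 1.75 for Igfbp4, 1.62 for Aplnr, 1.52 for Gja4, 1.39 for Unc5b, 1.33 for Sox17, 1.15 for Nkd1, 1.11 for Slc6a6, 1.10 for Cxcl12, 1.09 for Dhcr7, 1.06 for Myh11, 1.03 for Bmx and 0.87 for Sema3g. Among genes of no list, positive differences were 4.08 for Cdkn3, 4.06 for Cbln2, 3.41 for Cml2, 3.17 for Itga2, 3.0 for Sstr4 and 2.93 for Col14a1. The remaining cell cycle genes passed as well. Left out 1 at a time, libraries ended the call for Cldn5 in 10 cases, for Klf2 in 9, for Bmx and Fos in 7 each, and for Mmrn1 and Myh11 in 4 each. They ended it for Slc7a5 (adult KO library 1) and Sox17 (adult KO library 3) in 1 each. The call for Sox17 was also lost with robust limma-trend and with the replicate block. The calls for Cldn5, Klf2 and Mmrn1 were lost with the compared libraries alone. Those for Cldn5, Klf2 and Fos were lost under identity scaling, and that for Mmrn1 with the replicate block. The difference for Gkn3 was 3.86 without P9 KO library 3. That for Lcn2 was -3.15 without P9 KO library 2 and -5.24 without adult KO library 3. That for Etnppl, which rests on 1 count in P9 wt, was -8.48 without P9 wt library 3.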

How the results depend on the processing

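Settings were changed 1 at a time. Restricting calls to a log2 change of at least 1 left 5299 genes in KO (3199 higher and 2100 lower), 5474 in wt (3301 and 2173) and 996 for the difference between genotypes (533 and 463). Scaling to endothelial identity genes moved the median of all genes to 0.68 in KO, 0.39 in wt and 0.28 for the difference, and gave 10020 higher and 1740 lower genes in KO, 2765 lower genes in wt, and 2436 positive and 458 negative differences. Counts from the compared libraries alone, without the low-count filter, with robust limma-trend and with DESeq2 or its size factors stayed within 1.5 times the counts reported. With the compared libraries alone, the count fell to 8789 in KO and rose to 11709 in wt, and it was 2315 for the difference. Leaving out 1 library gave 9274 to 10470 genes in KO, 9493 to 9710 in wt and 1722 to 2376 for the difference. After each gene's group mean was subtracted, same-numbered adult and P9 KO libraries correlated by -0.09, -0.01 and -0.10. Differently numbered ones correlated by -0.07 to 0.12. With 3 libraries a group, such values cannot settle whether the replicate numbers carry a pairing. With the replicate number as a block, 7980 genes were called in KO, 11571 in wt and 2069 for the difference. Of 118 genes named and called in KO, 111 were called in the same direction under every alternative but the fold threshold, as were 64 of 72 named differences. Sign changes were seen under identity scaling for Cbln2 (0.20), Clca3a1 (0.51), Pcna (0.50), Plvap (0.60), Rp1 (0.12), Sox18 (0.44) and Tyms (0.42), and with 1 library left out for Clca3a1 (-0.40 to 0.090) and Plvap (-0.40 to 0.24). The cause was not tested. Depth limits the values of genes with few counts, and the number of libraries a group limits the rest.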

Other observations

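Smooth muscle, choroid and astrocyte markers were described above by their sums or counts, and a few are given here by library. The genes named here were chosen after their values were seen. Acta2, the actin of smooth muscle, had 44.98, 29.8 and 40.8 CPM in the adult KO and 2.77, 2.91 and 5.46 CPM in the P9 KO, against 39.3, 45.4 and 39.2 CPM in adult wt and 13.5, 12.9 and 14.6 CPM in P9 wt. Myh11, its myosin, had 35.1, 30.6 and 44.1 CPM in the adult KO and 2.19, 2.97 and 4.54 CPM in the P9 KO, against 37.3, 31.8 and 33.9 CPM in adult wt and 6.41, 5.2 and 7.85 CPM in P9 wt. For both genes every P9 KO library lay below every P9 wt library, and the adult groups overlapped. The log2 changes were 3.35 and 3.47 in KO and 1.59 and 2.41 in wt, all passing edgeR's quasi-likelihood test. The list as a whole did not rise in wt, where 3 of its 7 genes were higher and 3 lower. It summed to 181 to 186 CPM in adult wt and 235 to 323 CPM in P9 wt, against 173 to 204 CPM in adult KO and 77.8 to 168 CPM in P9 KO. Ttr, transthyretin of the choroid plexus, was the most abundant gene of adult KO library 1, at 7694, 4436 and 5211 CPM in the adult KO and 1890, 1870 and 1181 CPM in the P9 KO. Of the 10 astrocyte markers, 7 were higher and 1 lower in the adult KO. The lower one was Gfap, an intermediate filament of astrocytes. It fell to 30.3, 30.3 and 27.5 CPM in the adult KO, against 125, 77.2 and 62.01 CPM in the P9 KO. Slc1a2, the astrocyte glutamate transporter, was among those that rose. It had 612, 653 and 688 CPM in the adult KO and 314, 225 and 311 CPM in the P9 KO, beside 438 to 643 CPM in adult wt and 72.2 to 116 CPM in P9 wt.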
